A study of Rattus norvegicus with 9 samples.

Results

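Expression in the prefrontal cortex of 9 male Lewis rats was related to a value that the labels call sugar feeding. Lewis is an inbred rat strain, so the animals share nearly the same genome. All 9 rats of the series entered, chosen because they form its single labelled group, and each rat gave a single Affymetrix array. No treatment, mutation or transgene was involved. The rats were housed singly, and the labels give no age. Per the labels' protocols, 20 rats went through the behavioural tests of this experiment and brains were taken 12 days after the last test. The dissected block was frontal cortex without the olfactory bulb. The labels give sugar feeding no unit and do not say how it was scored. It is taken here to be the test that the protocols abbreviate SF.

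The prefrontal cortex takes part in valuing food and in choosing between actions, and it receives dopamine from the midbrain. Palatable sweet food engages dopamine, opioid and cannabinoid signalling together with peptides that act on feeding, such as neuropeptide Y. Leptin and insulin carry information on energy stores to the brain, and the leptin receptor signals through the JAK kinases and the transcription factor STAT3. The tissue also holds glia, among them oligodendrocytes, which wrap axons in myelin.

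Sugar feeding was 0.8 in rat 6, 1.3 in rat 7, 1.4 in rat 5, 1.7 in rat 2 and 1.8 in rat 3. It was 2.1 in rat 9, 2.4 in rat 1, 3.3 in rat 8 and 4.7 in rat 4, with a mean of 2.17 ± 1.19 (SD, n = 9). Most rats thus lay close together and rats 8 and 4 lay above them. Rat 4 alone held 56.7% of the sum of squares of sugar feeding about its mean, rat 6 held 16.5% and rat 8 held 11.3%. A straight line through 9 points is set mostly by rat 4 with such a spread.

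Rats 8 and 9 differed from the rest in expression, and rat 8 was also the rat with the second highest sugar feeding. On the first principal component they scored 35.6 and 30.2, against -12.1 to -1.6 for the other 7. Results are therefore also given without rats 8 and 9. The labels name no batch. Correlations between arrays ran from 0.988 to 0.998 and median log2 expression from 4.11 to 4.28. The labelled tissue was checked against its markers, and all 12 neuron markers on the array passed the filter on low values, with a mean log2 level of 10.11 to 10.52 per rat. The 3 olfactory bulb markers that passed averaged 3.34 to 3.54, close to the lowest mean kept, 3.22. The 4 striatum markers that passed averaged 7.47 and 7.19 in rats 8 and 9 and 6.59 to 7.04 in the other 7. Among them Pde10a had 9.44 and 9.29 in rats 8 and 9 and 6.89 to 8.23 in the others. Not every marker of that list was higher in both rats. Penk had 8.96 and 8.61 in rats 8 and 9 against 8.81 to 9.24, and Ppp1r1b had 8.20 and 7.66 against 7.36 to 7.97.

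No gene was related to sugar feeding at the threshold. Limma, which fits a slope per probe set and moderates its error across all of them, called 0 of 9520 at an adjusted p of 0.05, and the lowest adjusted p was 1.00. At an unadjusted p under 0.05 there were 133 probe sets (1.4%), 73 with a positive (0.767%) and 60 with a negative slope (0.63%), and at 0.01 there were 15 (0.158%). With no relation at all, a share of about 0.05 is expected on average at the first threshold, and 1.4% lay below that. Shares of all genes over the 9 rats, given below beside single genes, are observed shares and also lie below the nominal rate. Slopes are log2 units per SD of sugar feeding. Their median over all probe sets was -0.0030, and all but the lowest 1% and the highest 1% lay between -0.18 and 0.21. The 95% interval of a slope reached a median of 0.149 to either side, and 0.293 at the ninth decile. A slope smaller than its own interval arm does not reach an unadjusted p under 0.05. At an adjusted p of 0.05 no slope of any size was called with 9 arrays. By the same fit on the same arrays, unadjusted p under 0.05 was met by 13.2% of probe sets for startle, 1.96% for locomotion and 2.99% for the plus maze.

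The count at an unadjusted p under 0.05 depended on rat 4. Without rat 4 it was 1329 (394 positive, 935 negative), still with 0 at an adjusted p of 0.05, and 20 of the 133 were among them. Rat 4 had the highest or lowest level of all rats in 96 of the 133 probe sets (72.2%), against 15.2% of all probe sets. Of the 1329, 916 (68.9%) had rats 8 and 9 both beyond the other 6 rats on the same side, against 28.0% of all probe sets. Once rat 4 is left out, rat 8 has the highest sugar feeding left. With rat 4 left out and rats 8 and 9 given a term of their own the count was 191, and without rats 4, 8 and 9 it was 199. Without rats 8 and 9 it was 262 and without rats 4 and 8 it was 149, of which 2 were among the 133.

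**Figure D1:**
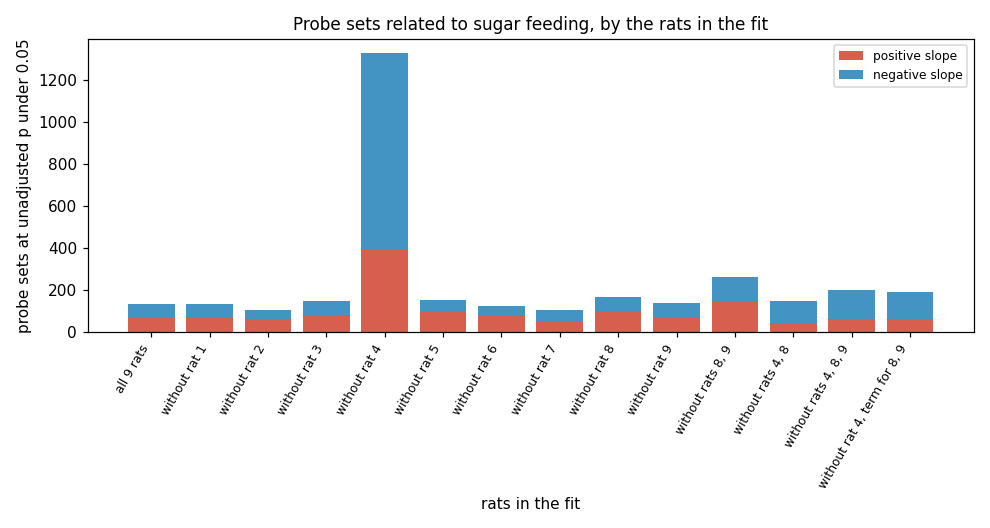
Bars give the number of the 9520 probe sets at an unadjusted limma p under 0.05 (vertical axis), split into positive and negative slopes, for fits on the rats named along the horizontal axis. The fit without rat 4 stands at 1329 and the other fits shown lie between 103 and 262.

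The genes with the smallest p were the 12 of positive and the 12 of negative slope picked by rank, whether or not they passed. Pfn1, the actin-binding protein profilin 1, led the negative side. Its log2 level was 9.14 in rat 4 and 9.19 in rat 8, and 9.50 to 9.65 in the other 7 rats, which it did not overlap. Its slope was -0.16 ± 0.038 (SE, n = 9), and within the 7 other rats r was -0.33. Irak1, a kinase of interleukin 1 receptor signalling, stood at 8.05 in rat 4, 8.16 in rat 8 and 8.28 to 8.44 in the others. Stat3, the transcription factor downstream of leptin and of interleukin 6 type cytokines, led the positive side at 7.37 in rat 4, 7.30 in rat 8 and 6.89 to 7.15 in the others. Each of these 3 genes separated the rats with the highest sugar feeding from the rest and had a weaker relation among the rest.

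Other leading genes were extreme in rat 4 alone. Arhgap18 had 4.09 in rat 4 and 3.29 to 3.38 in the other 8 rats, so its slope of 0.20 ± 0.059 rested on that rat and its r was -0.184 without it. The mean level of Arhgap18 was 3.42, with 3.22 the lowest mean kept. Zkscan5, a zinc finger protein, had 6.02 in rat 4 against 4.64 to 5.29. Ethe1, an enzyme of sulfide oxidation, had 6.28 against 5.59 to 5.87, and Ak3, a mitochondrial adenylate kinase, 8.08 against 7.08 to 7.53. Mrpl23, a mitochondrial ribosomal protein, had 7.65 against 7.96 to 8.15, and Rnf128, a ubiquitin ligase, 6.27 against 6.53 to 6.69. Rat 4 held the highest level in 9 of the 12 positive genes and the lowest in 11 of the 12 negative ones. Rats 4 and 8 held both end places in 5 and 6 of them.

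Rats 4 and 8 both stood high for Cybc1, which supports the phagocyte oxidase, at 5.68 and 5.71 against 5.27 to 5.39. The same held for Adcy6, an adenylyl cyclase, at 4.33 and 4.36 against 3.98 to 4.12, and for Hyou1, which helps proteins fold under low oxygen, at 8.36 and 8.43 against 7.91 to 8.12. Among the 7 remaining rats r was -0.50 for Cybc1, 0.0811 for Adcy6 and 0.176 for Hyou1. Pdk1, a kinase that inhibits pyruvate dehydrogenase, was low in both at 7.03 against 7.21 to 7.60, but the other Pdk1 probe set gave 0.026. Abca2, a lipid transporter abundant in oligodendrocytes, had a slope of 0.11 ± 0.035 with 8.58 in rat 4, 8.44 in rat 8 and 8.21 to 8.43 in the rest. Rbl2, a retinoblastoma family protein, had 0.21 ± 0.061 and Rex1bd -0.20 ± 0.065.

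Epg5, a factor of autophagy, and C1qtnf4, a secreted protein of the C1q and TNF family, kept more of their relation among the 7 rats without rats 4 and 8, with r of 0.755 and -0.544. Pfdn5, a prefoldin subunit, kept none (r = -0.0097), and Lhfpl2 had -0.496. Over all 24 genes these r ran from -0.50 to 0.755 on the positive side and from -0.775 to -0.0097 on the negative side, and 2 of the positive genes took the opposite sign. Without rats 8 and 9 they ran from 0.767 to 0.956 and from -0.930 to -0.709. A fold between the lowest and highest rat of 1.28 to 2.59 was found among the 24. The r of Epg5 was 0.808 over 9 rats but 0.439 without rat 4 alone, which had its highest level, 4.81 against 4.06 to 4.50. For C1qtnf4 these r were -0.814 and -0.651.

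A further 8 genes in each direction were chosen for steadiness. For these the smallest size of r was largest over the full 9 rats, each set of 8 rats, the 7 without rats 4 and 8 and the 7 without rats 8 and 9. Since they were picked for it, the steadiness describes them and supports nothing. The permutation p values given for some of them are for single genes and take no account of that choice. Of 6770 eligible genes, 22 kept an r above 0.5 in size and one direction throughout, 6 of them positive and 16 negative. Above 0.7 there were 0 positive and 2 negative genes, namely C11h3orf70 and Sbno1.

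C11h3orf70 had the steadiest relation and a very small range. Its log2 level was 7.84 in rat 6, 7.80 in rat 5, 7.65 in rat 8 and 7.63 in rat 4, and 5 rats shared an identical value of 7.76. Its r was -0.938 with an exact permutation p of 0.000661, and its rho was -0.858 with a permutation p of 0.00397. Leaving out rats 4 and 8 gave r = -0.765, and the limma adjusted p was 1.00. The fold between its lowest and highest rat was 1.16. Sbno1, a homologue of the fly gene strawberry notch, had 7.23, 7.12, 7.26, 7.21 and 7.00 in rats 6, 7, 5, 2 and 3, and 6.95, 7.03, 6.90 and 6.91 in rats 9, 1, 8 and 4. Its r was -0.780 with an exact permutation p of 0.00544, its rho was -0.850 with a permutation p of 0.00607, and leaving out rats 4 and 8 gave r = -0.740. Its limma adjusted p was also 1.00, and levels of the 4 rats with the lowest sugar feeding lay above those of the other 5.

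Selenom, a selenoprotein of the endoplasmic reticulum, and Bola1, a mitochondrial protein that acts with glutaredoxin, were the other steady genes with negative slopes among the leading 12. Selenom had 8.57 to 8.65 in rats 6, 7 and 5 and 7.98 to 8.26 in the other 6. Bola1 had its lowest level, 5.35, in rat 4 and its highest, 6.45, in rat 5. The remaining negative genes were Retreg2, a regulator of endoplasmic reticulum turnover, at -0.080 ± 0.034, Gadd45gip1, a mitochondrial ribosome protein, at -0.14 ± 0.062, Get3, the ATPase that guides tail-anchored proteins to membranes, at -0.15 ± 0.059 and Dact2, a modulator of Wnt and TGF-beta signalling, at -0.15 ± 0.061.

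On the positive side Zdhhc8, a palmitoyltransferase of synaptic proteins, had an r of 0.860 with an exact permutation p of 0.00317, and a rho of 0.720 with a permutation p of 0.0338. Leaving out rats 4 and 8 gave r = 0.697, and the limma adjusted p was 1.00. Its level was 5.90 in rat 6, 6.04 to 6.07 in 7 rats and 6.26 in rat 4, so the lowest and the highest rat set the line. Tubb4b, a tubulin, had an r of 0.722 with an exact permutation p of 0.0181, and a rho of 0.733 with a permutation p of 0.0311. It had r = 0.641 in the same 7 rats, a limma adjusted p of 1.00 and a fold of 1.15 between the lowest and highest rat. Ablim3, an actin-binding LIM protein, had a slope of 0.070 ± 0.044 with 5.38 in rat 6 and 5.71 to 5.81 in the rest. Fez1, an adaptor of axonal transport, had 0.065 ± 0.036, Tcp1, a subunit of the cytosolic chaperonin, 0.081 ± 0.043 and Usp8, a deubiquitinase of endosomes, 0.21 ± 0.096. Cdk8, a kinase of the Mediator complex, belonged to both sets with 0.17 ± 0.057.

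**Figure D2:**
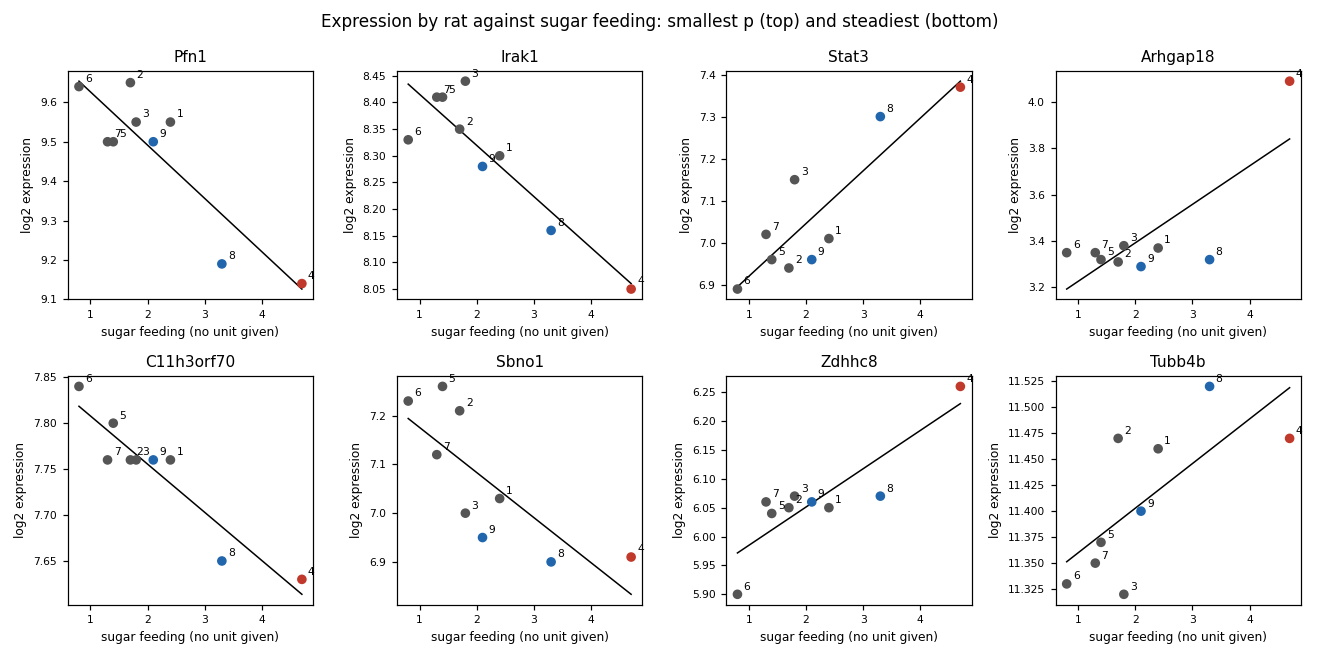
Each panel plots log2 expression of a gene against sugar feeding for the 9 rats, numbered, with rat 4 in red, rats 8 and 9 in blue and a least-squares line. In the upper row (genes of smallest p) rats 4 and 8, or rat 4 alone for Arhgap18, lie away from the others, and in the lower row (steadiest genes) r without rats 4 and 8 was -0.765, -0.740, 0.697 and 0.641 from left to right, with Zdhhc8 set mostly by rats 4 and 6.

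Among the gene groups, oligodendrocyte markers had the highest median slope. Of 12 listed, 8 were measured and 8 of these had a positive slope, while 44.1% of all genes did. Their median slope was 0.12, against -0.0059 over 6793 genes. Mobp and Mag, proteins of the myelin sheath, had an unadjusted limma p under 0.05, so 2 of 8 against 0.765% of all genes in that direction, and 0 passed an adjusted p of 0.05. In tissue of mixed cells, more cells of a type and more RNA per cell cannot be told apart.

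The mean log2 level of the 8 markers was 8.23 in rat 6, 8.29 in rat 7, 8.50 in rat 5, 8.67 in rat 2 and 8.61 in rat 3. It was 8.40 in rat 9, 8.39 in rat 1, 8.83 in rat 8 and 8.66 in rat 4. The lowest pair of rats by sugar feeding was also lowest here, and the highest pair was among the highest 3, with rats 2 and 3 at similar levels. Mobp had a slope of 0.20 ± 0.085 (SE, n = 9) and its other probe sets 0.25 and 0.19. Its level was 9.87 in rat 6 and 10.08 in rat 7, and 10.70 and 10.76 in rats 8 and 4, with 10.29 to 10.75 in the rest. Mag had 0.14 ± 0.056, with 8.10 in rat 8, 7.79 in rat 4 and 7.46 to 7.63 in the other 7.

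The other 6 markers were named after their values were seen, to account for the whole list. Mog, a surface protein of myelin, had 0.23 ± 0.10 and spanned 2.52-fold, from 5.73 in rat 6 to 7.06 in rat 8. Cldn11, the claudin of myelin tight junctions, had 0.15 ± 0.095, with its highest level, 9.91, in rat 4. Mbp, myelin basic protein, had 0.10 ± 0.071 and its second probe set 0.20. Cnp, a nucleotide phosphodiesterase of myelin, had 0.082 ± 0.083 and its second probe set 0.097. Sox10 and Olig1 are transcription factors of the lineage. Sox10 had 0.092 ± 0.084, with 4.73 in rat 8 against 3.84 to 4.05 in the other 8, and Olig1 had 0.013 ± 0.046.

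Positive slopes were found in 8 of the 8 markers without rats 8 and 9 as well, with a median of 0.080 (51.7% of all genes positive). In that fit 2 of them had an unadjusted limma p under 0.05, against 2.75% of all probe sets in either direction. Without rat 4 there were 8 positive slopes, with a median of 0.25 (35.4% of all genes positive). Without rats 4 and 8 there were 6, with a median of 0.098 (34.0% of all genes positive), and 0 reached that p. Without rat 7 there were 7 and 0 reached that p. The levels of other cell types were as follows. Astrocyte markers had positive slopes in 4 of 9 genes, microglial markers in 1 of 8 and endothelial markers in 1 of 8, with medians of -0.0094, -0.061 and -0.041. Their part in the slopes of the oligodendrocyte genes was not tested.

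**Figure D3:**
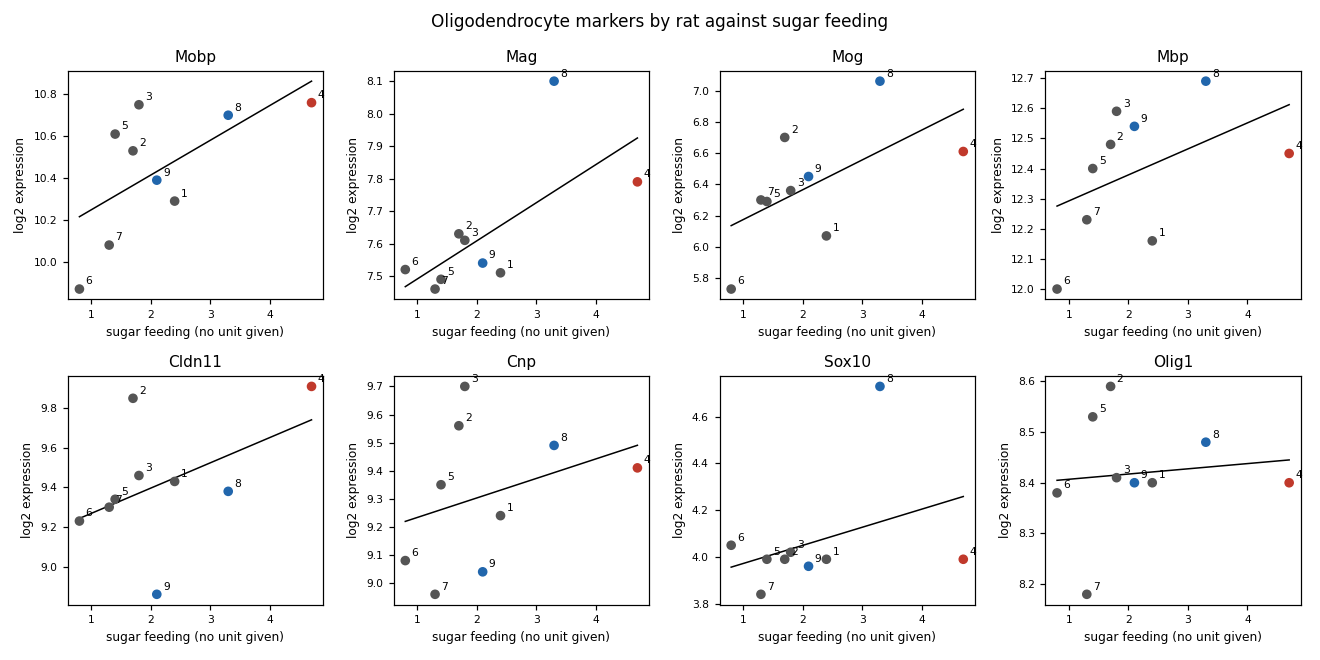
Each panel plots log2 expression of an oligodendrocyte marker against sugar feeding for the 9 rats, numbered, with rat 4 in red, rats 8 and 9 in blue and a least-squares line. The lines of all 8 panels slope upward, from 0.013 for Olig1 to 0.23 for Mog in log2 units per SD, and rat 6 holds the lowest level in the panels of Mobp, Mog and Mbp.

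Promoters of these genes are shown because their slopes shared a direction and SOX10 is a known activator of myelin genes. The RefSeq table, build GRCr8, held 5 of the 8 genes. The 250 bases before the start site were searched on both strands for ACAAAG or ACAATG, the core that SOX factors bind. It occurred in 3 of the 5 (Mobp, Mag and Cnp) and in 24.8% of all 27457 promoters of the table at that length. Mobp lies at chr8:128746982-128747231 on the plus strand, Mag at chr1:95291045-95291294 on the minus strand and Cnp at chr10:86011254-86011503 on the plus strand. Capitals mark the matches, which describe the letters and not a bound site.
Mobp: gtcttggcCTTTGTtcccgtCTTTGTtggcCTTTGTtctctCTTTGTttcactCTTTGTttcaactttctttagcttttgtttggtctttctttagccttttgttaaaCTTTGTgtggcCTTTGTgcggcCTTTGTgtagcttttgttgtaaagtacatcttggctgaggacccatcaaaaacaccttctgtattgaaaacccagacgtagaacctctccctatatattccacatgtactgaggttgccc
Mag: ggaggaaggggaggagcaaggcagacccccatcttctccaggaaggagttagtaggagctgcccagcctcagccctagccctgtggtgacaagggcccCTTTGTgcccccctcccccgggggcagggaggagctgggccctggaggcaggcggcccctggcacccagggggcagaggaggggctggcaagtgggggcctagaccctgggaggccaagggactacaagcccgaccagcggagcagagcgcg
Cnp: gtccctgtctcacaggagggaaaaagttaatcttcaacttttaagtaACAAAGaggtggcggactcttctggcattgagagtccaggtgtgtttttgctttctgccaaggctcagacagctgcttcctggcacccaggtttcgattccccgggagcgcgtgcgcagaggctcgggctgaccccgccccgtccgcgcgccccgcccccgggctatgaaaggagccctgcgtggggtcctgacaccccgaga
The Mobp window held 8 matches within a repeated stretch, the nearest 120 bases before the start, and Mag and Cnp held 1 each, at 152 and 203 bases.

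Many genes of reward signalling could not be tested. Of 17 genes listed for dopamine, 6 passed the filter, 9 fell below it and 2 had no probe set with 1 symbol, and the dopamine receptors Drd1, Drd2, Drd3, Drd4 and Drd5 fell below it. Ppp1r1b, the dopamine-regulated phosphatase inhibitor DARPP-32, was the dopamine gene with an unadjusted limma p under 0.05 on the positive side (0.765% of all genes). It is also a striatum marker. The part of the striatum markers in its slope was not tested. Its level was 7.36 in rat 6, 8.20 in rat 8, 7.97 in rat 4 and 7.60 to 7.89 in the other 6 rats, with a slope of 0.18 ± 0.062. Rats 8 and 4 had the highest levels and rat 6 the lowest. Its r was 0.725 with an exact permutation p of 0.0289, and its rho was 0.636 with a permutation p of 0.0716. Leaving out rats 4 and 8 gave r = 0.472, leaving out rats 8 and 9 gave 0.714, and the limma adjusted p was 1.00. Pde1b, a cyclic nucleotide phosphodiesterase, had -0.15 ± 0.11 and Pde10a, the phosphodiesterase of striatal-type neurons, 0.18 ± 0.30, which was -0.050 without rats 8 and 9.

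Of 14 opioid and cannabinoid genes 4 passed the filter, 6 fell below it, among them the mu opioid receptor Oprm1, and 4 had no probe set with 1 symbol. Cnr1, the cannabinoid receptor of axon terminals, had a slope of -0.0065 with a 95% interval from -0.16 to 0.15. Penk, proenkephalin, had -0.0092 (-0.16 to 0.14), and Mgll, which degrades an endocannabinoid, -0.043 (-0.15 to 0.066), and its other probe sets had 0.18, 0.043 and 0.0005. These intervals bound the slope and do not show that it is 0. Of 14 serotonin genes 5 passed. Htr5a had 0.13 ± 0.11, with 4.56 in rat 8 against 3.46 to 3.55, and Htr2a had -0.11 ± 0.10. The mean level of Htr5a was 3.62, with 3.22 the lowest mean kept.

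Of 43 feeding peptides and receptors 16 passed the filter, 6 of them with a positive slope and a median of -0.012, which was 0.011 without rat 8. Sstr2, a somatostatin receptor, was the member with an unadjusted limma p under 0.05 on the positive side (0.765% of all genes), at 0.21 ± 0.083. It rested on rat 4, at 6.80 against 5.70 to 6.21 in the others, and its r was 0.00429 without rat 4. Cckbr, the brain receptor of cholecystokinin, had a slope of -0.086 ± 0.063. Its rho was -0.801 with an exact permutation p of 0.0112, its r was -0.448 with a permutation p of 0.210, and leaving out rats 4 and 8 gave r = -0.70. Its limma adjusted p was 1.00. It was lowest in rat 8 at 6.63, and rat 4 had 7.07, an identical value that 4 rats shared. Npy, neuropeptide Y, had -0.077 with an interval from -0.37 to 0.21, and its slope was 0.031 without rats 8 and 9. Lepr, the leptin receptor, had 0.0074 (-0.15 to 0.16) at a mean level of 3.67.

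Signalling downstream of hormones and cytokines showed few single genes. For insulin and growth factors 0 of 24 genes had an unadjusted limma p under 0.05, the median slope was 0.022, and the members of smallest p were Tsc1, a brake on mTOR, at -0.080 ± 0.069 and Akt1, a kinase of insulin signalling, at 0.059 ± 0.057. In the JAK and STAT list 9 of 13 genes had a positive slope, with a median of 0.033 (44.1% of all genes positive), and Stat3 was the member under that p (0.765% of all genes on the positive side). Pias3, an inhibitor of STAT3, had 0.17 ± 0.086. The mean log2 level of the 13 genes was 5.62 in rat 4, 5.68 in rat 8 and 5.52 to 5.57 in the other 7. That mean includes Stat3 and Pias3, the members of smallest p. Pias3 had 5.47 in rat 4, 5.52 in rat 8 and 4.54 to 5.27 in the other 7. The mean of the remaining members was not computed. The second Stat3 probe set had 0.26 ± 0.29.

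Of 9 genes of interleukin 1 receptor and NF-kappaB signalling, Irak1 was the member under an unadjusted limma p of 0.05 on the negative side (0.589% of all genes), and 5 slopes were positive. The median of the 9 was 0.076, and -0.040 without rat 4. Nfkb1 had 0.13 ± 0.072, with rats 8 and 9 highest at 6.06. In the cyclic AMP list 1 of 20 genes, Adcy6, was under that p on the positive side (0.765% of all genes), and the median slope was -0.0015.

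Genes of mitochondrial energy metabolism had fewer positive slopes than the 44.1% of all genes over the 9 rats, but not in every fit. Of 68 respiratory chain and ATP synthase genes 12 had a positive slope and the median was -0.034, with 0 under an unadjusted limma p of 0.05 against 1.35% of all genes. Cox6b1, a subunit of cytochrome oxidase, had -0.13 ± 0.057 and Ndufa11, a subunit of complex I, -0.16 ± 0.074. Positive slopes numbered 15 without rats 8 and 9 (51.7% of all genes positive). They numbered 38 without rat 4 with rats 8 and 9 fitted by a term (48.4% of all genes positive), when the median was 0.0098, so the direction turned there. Of 70 mitochondrial ribosomal proteins 20 had a positive slope, with a median of -0.022. Mrpl23 was under that p on the negative side (0.589% of all genes) and Mrpl54 had -0.073 ± 0.044. The median was -0.074 without rat 4, -0.00091 with a term for rats 8 and 9 (34 of 70 positive) and 0.0072 with both (36 of 70), so it turned there too. In the pyruvate dehydrogenase and citric acid cycle list 6 of 27 were positive and the median was -0.028. Pdk1 was under that p on the negative side (0.589% of all genes), and Mpc1, a mitochondrial pyruvate carrier, had -0.099 ± 0.070. Without rat 4 the median was -0.0996 with 3 positive, and with the term for rats 8 and 9 as well it was -0.0057 with 13 positive. Glucose transport and glycolysis had 8 of 17 positive and a median of -0.00052, with Ldhb at 0.046 ± 0.032 and Pfkm at 0.048 ± 0.049. The slopes within each of the 30 lists come from the same 9 arrays and are not independent of each other. Over the alternatives that gave a value the median of 5 lists kept its sign, namely those for JAK and STAT signalling, the citric acid cycle, oligodendrocytes, striatum and choroid plexus. The median of 25 lists took the other sign in at least 1 alternative, 17 of them with a single rat left out.

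**Figure D4:**
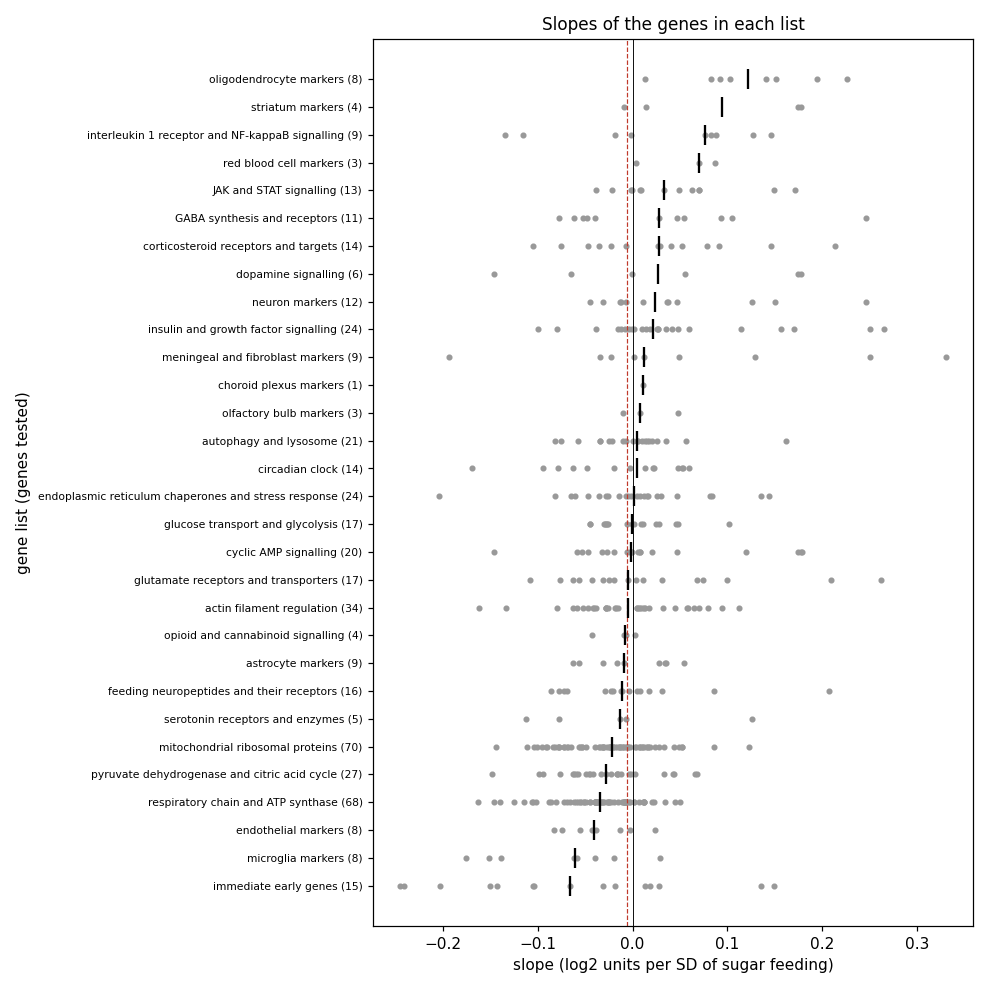
Grey points are slopes of the single genes of each list in log2 units per SD of sugar feeding (horizontal axis), black bars the median of the list and the dashed line the median over all genes, -0.0059. Lists are ordered by their median, from -0.066 for immediate early genes to 0.12 for oligodendrocyte markers, with the number of genes tested in brackets.

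Immediate early genes, which follow neuronal activity, had the lowest median, -0.066, with 5 of 15 slopes positive (44.1% of all genes) and 0 under an unadjusted limma p of 0.05. With locomotion as a covariate 9 were positive and the median was 0.0077. Leaving out rat 7 gave a median of -0.015, leaving out rat 4 gave -0.021, and leaving out rats 4, 8 and 9 gave -0.318. Fos had -0.24 with an interval from -0.75 to 0.26, and it ranged from 6.75 in rat 2 to 9.10 in rat 7. Bdnf, the neurotrophin, had -0.24 (-0.67 to 0.19), with 0.0049 at its second probe set, and was 4.27 in rat 4 against 5.02 to 6.49, so its r was -0.392 over 9 rats and 0.450 without rat 4. In the corticosteroid list 1 of 14 genes, Sgk1, a glucocorticoid-induced kinase, was under that p on the positive side (0.765% of all genes). Sgk1 had 0.15 ± 0.054, and its r was 0.717 over 9 rats and 0.327 without rat 4. Klf9 had 0.21 ± 0.12. In the circadian list 1 of 14, Nfil3, a repressor of clock output, was under that p on the negative side (0.589% of all genes). Nfil3 had -0.079 ± 0.035 at a mean level of 3.67, with 3.22 the lowest mean kept. It rested mostly on rat 4, at 3.45 against 3.63 to 3.84 in the others. Its r was -0.758 over 9 rats and -0.310 without rat 4. Clock had -0.17 ± 0.080.

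For glutamate receptors and transporters 0 of 17 and for GABA genes 0 of 11 were under an unadjusted limma p of 0.05, with medians of -0.0051 and 0.028. Without rat 4 the medians were 0.011 and -0.138, without rat 7 they were 0.0034 and -0.0032, and without rat 8 the GABA median was -0.012, so both turned sign with 1 rat left out. Grm8, a metabotropic glutamate receptor, had 0.068 ± 0.053 and Grin2c, an NMDA receptor subunit, 0.074 ± 0.061. Gabra5, a GABA-A receptor subunit, had -0.062 ± 0.056 and Slc32a1, the vesicular GABA transporter, 0.11 ± 0.11. Of 34 actin genes Pfn1 was under that p on the negative side (0.589% of all genes). Pak1, a kinase upstream of LIM kinase, had 0.065 ± 0.041 but -0.11 at its second probe set. Of 24 genes of the endoplasmic reticulum 2 were under that p, Hyou1 and Creld2 (0.765% of all genes on the positive side), the latter at 0.14 ± 0.062. The r of Creld2 was 0.646 over 9 rats and 0.291 without rat 4. Of 21 autophagy genes Epg5 was under that p on the positive side (0.765% of all genes) and Ulk2 had 0.056 ± 0.039.

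Among the remaining cell type markers, Nefm, a neurofilament, was the neuron marker under an unadjusted limma p of 0.05. On the positive side 0.765% of all genes were under it. Nefm had a slope of 0.15 ± 0.062, and its r was 0.665 over 9 rats and 0.328 without rat 4. Nefh had 0.13 ± 0.079. The median over 12 neuron markers was 0.024, and -0.0033 without rat 8. Aqp4, the water channel of astrocytes, had -0.063 ± 0.094 and Slc1a3, a glial glutamate transporter, -0.057 ± 0.089. Ctss, a protease of microglia, had -0.15 ± 0.076 and C1qc -0.14 ± 0.080. Cldn5, a claudin of the blood-brain barrier, had -0.075 ± 0.065 and Slco1c1, a thyroid hormone transporter, -0.043 ± 0.044. The fibroblast genes Dcn and Col1a1 had -0.19 ± 0.20 and 0.13 ± 0.17. Of 4 striatal markers measured, Ppp1r1b was under that p on the positive side (0.765% of all genes). Blood, choroid plexus and olfactory bulb lists held 3, 1 and 3 genes, with Hbb at 0.070 ± 0.24, Alas2 at 0.087 ± 0.084, Folr1 at 0.011 ± 0.029, Cdhr1 at 0.048 ± 0.054 and Calb2 at -0.0097 ± 0.030.

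Slopes on locomotion, measured in the same rats, are given beside those on sugar feeding for genes of each kind. They share all arrays and are not compared by a test. Stat3 had 0.15 for sugar feeding and 0.033 for locomotion, Arhgap18 0.20 and 0.014, and Rnf128 -0.10 and -0.0050. Values were closer for Rex1bd, at -0.20 and -0.15, for Retreg2, at -0.080 and -0.085, and for Tcp1, at 0.081 and 0.096. The unadjusted limma p for sugar feeding and locomotion was 0.041 and 0.026 for Retreg2 and 0.092 and 0.038 for Tcp1. Locomotion was 634 and 635 in rats 6 and 7, lowest in sugar feeding, and 946 and 805 in rats 8 and 4, highest in it. Its own lowest and highest values were 536 in rat 3 and 1102 in rat 1. Slopes of Mobp were 0.20 and 0.034. The relations named were computed for 93 genes, and each of them had a limma adjusted p of 1.00 over the 9520 probe sets.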

How the data were processed

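The authors deposited log2 expression values, 1 per probe set and array. They used GCRMA under R 2.6.2, per the submitters' processing notes, with settings that no label used here states. Of the tested probe sets, 47.0% held a value that 2 or more arrays shared exactly.

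From 15923 probe sets, 57 controls and then the lowest 40% by mean were removed, leaving 9520, of which 7862 carried a single symbol (6793 genes). Slopes per SD of sugar feeding came from lmFit and eBayes (limma 3.58.1, R 4.3.3), two-sided, with Benjamini-Hochberg adjustment over the 9520 and a threshold of 0.05. Residual degrees of freedom were 7. With 1 array per rat the spread includes technical differences. Exact permutation tests, two-sided, ran over 362880 pairings (numpy 2.4.6, with ranks from scipy 1.17.1). For Pearson r of untied values they reach 2.76e-06 at the lowest.

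Genes named are the 12 of smallest limma p and the 8 steadiest in each direction, the 2 of smallest p in each of 30 lists, and Cnr1, Npy and Lepr. The remaining oligodendrocyte markers tested (Cldn11, Cnp, Mbp, Mog, Olig1 and Sox10) were added after their values were seen. The probe set of highest mean stands for a gene. Members, lists and rules were chosen with earlier results of these data known. The permutation p values are for single genes and take no account of how these were chosen. Alternatives changed the filter, normalization, moderation, scale of sugar feeding, covariates, array weights and rats left out.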

Additional observations from a re-analysis of the deposited data

Results flagged for a closer look

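In 17 of the 93 genes named, a single rat lay far from the other 8, with a gap to its nearest neighbour that was above Dixon's 95% critical value for 9 samples as a share of the whole range. For normal values such a gap comes in about 1 in 20 groups. Of the tested probe sets 47.0% held a value shared by 2 or more arrays, and the share with such a gap over all of them was not computed. The 17 are therefore not read as an excess over that rate. Rat 4 accounted for 8 of the 17 and rat 8 for 4.

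In rat 4, high levels were found for Zkscan5 at 6.02, Arhgap18 at 4.09, Ethe1 at 6.28, Ak3 at 8.08, Zdhhc8 at 6.26 and Sstr2 at 6.80, and low levels for Mrpl23 at 7.65 and Rnf128 at 6.27. In rat 8, high levels were found for Htr5a at 4.56, Akt1 at 10.06, Grm8 at 7.71 and Sox10 at 4.73. Rat 3 had 9.93 for Cnr1, its lowest level, and 4.10 for Lepr, its highest. Rat 7 had 10.04 for Pfkm, its lowest level, and 3.40 for Calb2, its highest. Rat 6 had 5.38 for Ablim3, its lowest level. The genes of smallest p were chosen by a fit in which rat 4 has the greatest weight, so its share among them is no separate result.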

How the results depend on the processing

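No probe set passed an adjusted p of 0.05 in limma under any of the 24 alternatives, of which 2, the fits without rats 4, 8 and 9 and without rat 4 with a term for rats 8 and 9, were chosen after seeing the data. At an unadjusted p under 0.05 the count was 133, and it was 212 with no filter, 44 with the lowest 70% left out, 240 with a term for rats 8 and 9 and 262 without these rats. At 0.01 the count was 15, and in these 4 fits it was 45, 3, 44 and 55. It was 7 with ranks of sugar feeding, 24 with the other 3 behaviours as covariates, 25 with array quality weights and 30 without rats 4, 8 and 9. Leaving out each rat in turn gave 103 to 1329 at 0.05 and 9 to 285 at 0.01, and the highest values were those without rat 4. The cause was not tested. No paired analysis was possible because all 9 rats form 1 group. Slopes of the 93 genes were recomputed under 15 of the alternatives, which did not include leaving out rats 4 and 8 together, and of these 1395 slopes 40 reversed, in 17 genes. Without rats 4 and 8, r took the other sign in 20 genes, 11 of them outside the 17, among them Cybc1 at -0.50, Ldhb at -0.401, Sstr2 at -0.389, Ulk2 at -0.343, Grin2c at -0.252, Htr2a at 0.408 and Clock at 0.105. Slopes with each rat left out ran from -0.0082 to 0.243 for Arhgap18, -0.227 to 0.147 for Pde1b, -0.0432 to 0.0272 for Penk and -0.000407 to 0.443 for Htr5a. They ran from -0.361 to 0.317 for Bdnf, -0.138 to 0.16 for Slc32a1, -0.172 to 0.00527 for C1qc, -0.0118 to 0.437 for Col1a1 and -0.143 to 0.581 for Hbb. They ran from -0.00568 to 0.0913 for Cdhr1, -0.0166 to 0.00242 for Calb2, -0.034 to 1.06 for Pde10a and -0.0878 to 0.0309 for Cnr1. They ran from -0.453 to 0.0259 for Npy, -0.0166 to 0.0371 for Lepr and -0.0127 to 0.0499 for Olig1. Quantile normalization gave 0.000323 for Penk, 0.00339 for Cnr1 and -0.00231 for Lepr, and log2 of sugar feeding gave 0.0075 for Penk. Locomotion as a covariate gave 0.0218 for Slc1a3 and -0.0019 for Olig1. The term for rats 8 and 9 gave 0.0192 for Penk, -0.0609 for Hbb, -0.0373 for Pde10a, 0.00388 for Cnr1 and 0.00692 for Npy. Without these rats Col1a1 had -0.0103, Hbb -0.148, Pde10a -0.0504, Cnr1 0.00908 and Npy 0.0312. Array quality weights gave 0.0385 for Penk, -0.0136 for Col1a1 and -0.155 for Hbb. With 9 arrays the 95% interval arm of a slope had a median of 0.149. It differed between probe sets, so slopes smaller than 0.149 could have an unadjusted limma p under 0.05, as Abca2 did at 0.11 ± 0.035. No slope passed an adjusted p of 0.05.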
